A study of Mus musculus with 4 samples.

Results

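This account covers 6 genes of the hepatic fasting response in Rap1-/- and wild-type mouse liver. They are the hepatokines Fgf21, Angptl4 and Angptl6, the kinase Pdk4 and the ketogenic enzymes Bdh1 and Acat1. Their members on the array are all non-control probes whose accession maps to one of these genes, which gave 6 of 19752 named genes and 8 of 55681 probes, 3 of them for Bdh1 and 1 for each of the others. All 8 were among the 27513 probes that were well above background and tested. Each had 1 spot per array, none carried an outlier flag, and each stood well above background on all 4 arrays in both genotypes.

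The knockout animals were whole-body constitutive Rap1 knockouts (Rap1-/-), set against wild-type mice of the same C57BL6/129SV (90%:10%) background at 30 weeks of age. The knockout came from floxed mice crossed to a line in which the EIIa promoter drives cre from the early embryo onward, and the cre allele was then bred out, so every cell type lacks RAP1 and an effect on liver need not arise in hepatocytes. Liver RNA was hybridised on 4 Agilent 2-colour arrays, each holding a Rap1-/- liver and a wild-type liver. In replicates 1, 2 and 3 the Cy5 dye marked Rap1-/- RNA and Cy3 marked wild-type RNA. The 4th array is a dye swap, with Rap1-/- in Cy3 and wild-type in Cy5, taken from its number in the labels as a repeat of replicate 1. The labels give neither sex nor feeding state at collection, the study's text describes females at a somewhat later age, and standard chow was the diet unless stated otherwise.

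When food is withheld, fatty acids released by adipose tissue reach the liver, activate the nuclear receptor PPARα and are oxidised. Acetyl-CoA that exceeds the need of the citric acid cycle is turned into the ketone bodies acetoacetate and 3-hydroxybutyrate, which feed other organs. Pyruvate dehydrogenase is inhibited in the same state, which spares glucose, and the liver releases hormones that tell other organs of the energy deficit. Fgf21, Angptl4 and Pdk4 are textbook PPARα targets, and Fgf21 is also induced by ATF4, the transcription factor of the integrated stress response.

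Upstream sequence of Fgf21 and Pdk4 is shown because these were the member genes whose levels spread most widely among the Rap1-/- livers. RefSeq (GRCm38.p6) start sites were held for 4 of the 6 genes, as 5 promoters, and the 250 bases before each were searched on both strands for 6 motifs. In capitals are matches to TGATGCAA (a composite site for ATF4 and C/EBP proteins, 0.791% of 32851 mouse promoters of that length), CACGTG (the E-box, 6.02%) and TATAAA (the TATA box, 12.4%). The others searched were AGGTCA (the core bound by nuclear receptors, 14.0%), TTAGGG (the telomeric repeat unit, 9.32%) and TGTTTAC (the forkhead core, 3.17%). No motif overlaps another in the Fgf21 window.
Fgf21, chr7:45615491-45615740, minus strand: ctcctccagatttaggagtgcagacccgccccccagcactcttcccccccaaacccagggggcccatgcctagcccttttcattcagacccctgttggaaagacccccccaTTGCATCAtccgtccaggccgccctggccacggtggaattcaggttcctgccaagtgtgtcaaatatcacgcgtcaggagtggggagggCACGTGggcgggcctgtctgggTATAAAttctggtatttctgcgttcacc
Pdk4, chr6:5496279-5496528, minus strand: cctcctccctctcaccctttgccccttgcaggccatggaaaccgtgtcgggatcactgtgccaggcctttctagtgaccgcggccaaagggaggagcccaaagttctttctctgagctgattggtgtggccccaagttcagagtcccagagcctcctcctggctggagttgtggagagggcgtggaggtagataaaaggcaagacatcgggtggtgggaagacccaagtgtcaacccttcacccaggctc
In Fgf21 the composite site, which reads in reverse, began at position -139 from the start site, the E-box at -50 and the TATA box at -28. The Pdk4 window held none of the 6 motifs, nor did those of Angptl6 and the 2 Bdh1 start sites. The match is a description of these letters and says nothing about binding.

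Before any difference was read, the channels of each genotype were compared across arrays. Over 10538 bright probes, the Rap1-/- channels of replicates 1, 2 and 3 differed from each other by 0.323 to 0.488 (SD of the log2 difference), whereas the wild-type channels differed by only 0.0967 to 0.111, with r of 0.998 to 0.999. Repeated spots of a probe within 1 array differed by more than that, 0.198 to 0.231 in the wild-type channels of these arrays and 0.206 to 0.238 in the Rap1-/- channels. The wild-type channels of the 3 arrays thus differed by less than the measurement noise, although the labels number 3 separate replicates. They are read here as 1 wild-type sample, although the fits take a ratio from each array, and n = 3 pairs counts the Rap1-/- livers. A pool or a single RNA cannot be told apart from 3 closely similar livers, and on these 3 arrays, where wild-type always carried Cy3, the narrower spread of wild-type cannot be told apart from that of the dye. The p-values below therefore measure a spread around a nearly fixed wild-type value, and leave out the spread of wild-type livers. That spread is not of Rap1-/- livers alone. Replicate 1 enters as its average with the dye swap, whereas replicates 2 and 3 enter with 1 dye orientation, so livers and dye are mixed in it. For Slc25a20, described below, the SE was 0.10 in this fit and 0.23 without the dye swap.

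The arrays of replicates 1, 2 and 3 correlated with each other at 0.64 to 0.85 over all tested probes, and with the dye swap, after its sign was turned, at -0.24 to -0.29. The direction was kept because the labels state the dyes. Terf2ip, the gene that encodes RAP1, exceeded background at the probe A_52_P381806 on 0 arrays for Rap1-/- and on 4 for wild-type, with log2 ratios of -1.74, -1.92, -1.91 and -1.68, which puts it at least 3.05-fold lower in Rap1-/- (adjusted p = 0.00859, limma). That bound sets the wild-type mean against the faintest signal counted as above background in Rap1-/-. A further probe of the gene, A_55_P2094079, was higher by 0.96 on the log2 scale, and where either probe lies in relation to the deleted part was not determined. Of the hepatocyte markers, 6 of 6 were measured, and 1 of them passed the test.

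In the genotype comparison, 1 of the 8 member probes passed the test (limma on the log2 ratio of Rap1-/- over wild-type, 3 pairs of channels, FDR under 0.15), against 34.5% of all tested probes (20.8% higher and 13.7% lower). It was a probe of Bdh1, and it was higher. With a term for dye over the 4 arrays 0 of the 8 passed, against 6.7% of all tested probes. Among all probes that passed, 60.3% were higher, a share that ran from 45.3% to 87.7% under other scalings, and without replicate 2 the count of probes that passed was 7. At an unadjusted p under 0.05 the members' count was again 1 of 8, against 34.0%. Mean log2 fold changes are over the 3 pairs, for which the dye swap was first averaged with replicate 1, so they differ from the plain mean of the 4 ratios given beside them. The median log2 fold change of the 8 probes was 0.03, as over all tested probes (0.03), and 7 of the 8 lay within 0.4 of no difference. On 7 of the 8 probes the 3 arrays with Rap1-/- in Cy5 did not share a direction, which was so for 34.6% of all tested probes. The remaining probe changed sign on the dye swap (43.9% of all tested probes), so 0 of the 8 kept a direction on all 4 arrays (21.5%). A mixed direction is not by itself a wide spread. Angptl6 counts among the 7 with -0.04, 0.13 and -0.02, and the 2 brighter Bdh1 probes through -0.04 and -0.08 in replicate 3.

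**Figure D1:**
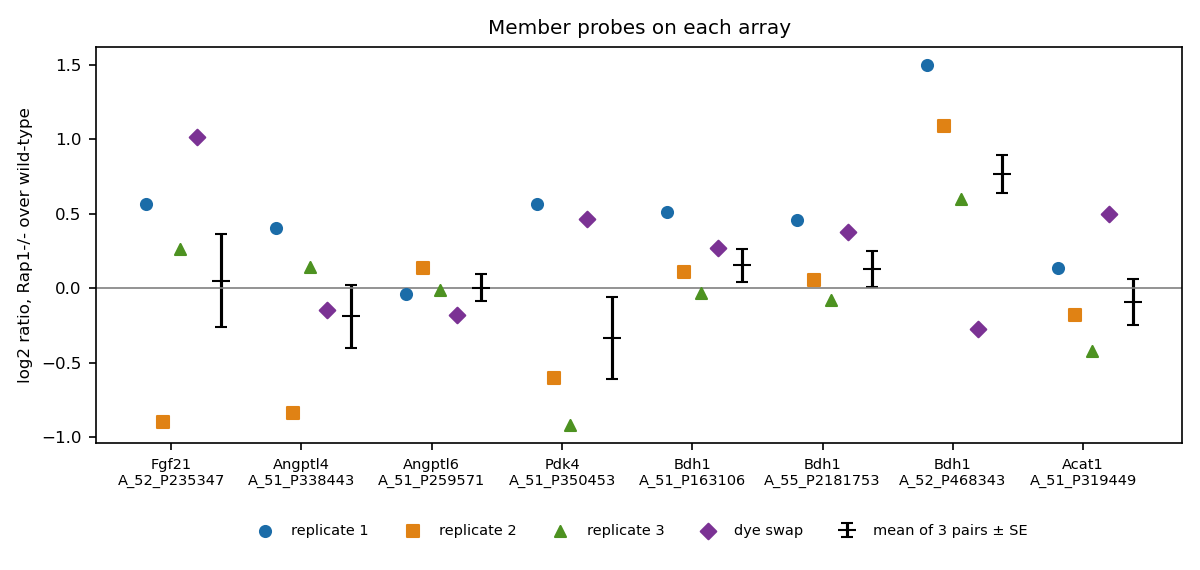
Log2 ratio of Rap1-/- over wild-type (y axis) for each of the 8 member probes on the arrays of replicates 1, 2 and 3 and on the dye swap, with the mean of 3 pairs and its SE as a bar. Fgf21, Angptl4 and Pdk4 straddle 0 by a wide margin, and Bdh1 A_52_P468343 is above 0 on 3 arrays and below it on the dye swap.

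Fgf21 encodes a hormone that the fasted or amino acid-deprived liver releases and that acts through FGF receptors with the co-receptor β-Klotho. Its probe A_52_P235347 had normalized log2 intensities of 9.33, 7.85 and 8.97 in the Rap1-/- channels of replicates 1, 2 and 3 and 9.27 in that of the dye swap, against 8.77, 8.74, 8.71 and 8.25 in the matching wild-type channels. Replicate 2 was the low liver, 1.49 below replicate 1 on the log2 scale, while the 3 wild-type Cy3 channels lay within 0.06 of each other, so the genotypes overlapped. The log2 ratios were 0.57, -0.90 and 0.26, and 1.01 on the dye swap, where the transcript was again higher in the liver taken as that of replicate 1. The mean log2 fold change was 0.05 ± 0.31 (SE, n = 3 pairs) with a 95% interval of -0.73 to 0.83, and the probe did not pass the test (adjusted p = 0.922, limma). Fgf21 was also the faintest member in relation to its surroundings, with a lowest signal 4.28 times the local background.

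Angptl4 encodes a secreted inhibitor of lipoprotein lipase that directs circulating triglyceride away from tissues during fasting. At A_51_P338443 the normalized log2 intensities were 14.12, 12.93, 13.76 and 13.62 in Rap1-/-, against 13.72, 13.77, 13.62 and 13.77 in wild-type, for replicates 1, 2 and 3 and the dye swap in that order. Replicate 2 was again the low Rap1-/- liver, and the other 3 Rap1-/- channels lay on both sides of wild-type. The log2 ratios were 0.40, -0.84, 0.14 and -0.15. Their mean over pairs of -0.19 ± 0.21 had a 95% interval of -0.72 to 0.34 (adjusted p = 0.557, limma), and its sign turned to 0.13 without replicate 2.

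Angptl6, whose product is also called angiopoietin-related growth factor and in mice counters weight gain, was the member that varied least. A_51_P259571 read 11.68, 11.85, 11.63 and 11.67 in Rap1-/-, against 11.72, 11.72, 11.65 and 11.85 in wild-type (normalized log2 intensity, same order). No Rap1-/- channel stood apart, and the log2 ratios of -0.04, 0.13, -0.02 and -0.18 gave a mean over pairs of 0.0023 ± 0.09, with a 95% interval of -0.23 to 0.23 (adjusted p = 0.989, limma).

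Pdk4 encodes the kinase that phosphorylates and shuts off the pyruvate dehydrogenase complex when fat is the fuel. A_51_P350453 read 10.69 and 10.37 in the Rap1-/- channels of replicate 1 and the dye swap, against 10.12 and 9.90 in wild-type. In replicates 2 and 3 it read 9.54 and 9.26 in Rap1-/-, against 10.14 and 10.19 in wild-type. The Rap1-/- livers therefore split to both sides of wild-type, replicate 1 above on either dye and replicates 2 and 3 below. The log2 ratios were 0.56, -0.60, -0.92 and 0.47. Their mean over pairs was -0.34 ± 0.28 with a 95% interval of -1.02 to 0.35, and the probe did not pass (adjusted p = 0.426, limma). The value rested on single livers. Without replicate 1 the log2 fold change was -0.76 and passed the test (adjusted p = 0.0181, limma), as did 12596 of the 27513 tested probes. That fit drops the dye swap too and keeps only replicates 2 and 3, both with Rap1-/- in Cy5. The log2 fold change of Pdk4 was -0.20 without replicate 2 and -0.043 without replicate 3, where it did not pass.

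Bdh1 encodes the mitochondrial dehydrogenase that interconverts acetoacetate and 3-hydroxybutyrate, the last step of ketogenesis. It had 3 probes, of which 1 passed. The brightest, A_51_P163106, read 14.96, 14.66, 14.51 and 14.85 in Rap1-/-, against 14.45, 14.55, 14.54 and 14.58 in wild-type. Its log2 ratios of 0.51, 0.11, -0.04 and 0.27 were highest in replicate 1 and gave a mean over pairs of 0.15 ± 0.11, with a 95% interval of -0.12 to 0.43 (adjusted p = 0.366, limma). A_55_P2181753 followed it closely, with 13.63, 13.26, 13.03 and 13.61 in Rap1-/-, against 13.17, 13.20, 13.11 and 13.23 in wild-type, and a mean log2 ratio of 0.13 ± 0.12 (adjusted p = 0.476).

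The faintest Bdh1 probe, A_52_P468343, was the single member that passed. It read 10.16, 9.62 and 9.09 in the Rap1-/- channels of replicates 1, 2 and 3, against 8.66, 8.53 and 8.49 in wild-type, so that all 3 Rap1-/- livers were above all 3 wild-type channels. On the dye swap the order was the other way, 9.22 in Rap1-/- and 9.49 in wild-type. The log2 ratios were 1.50, 1.09, 0.60 and -0.27, and the mean of 0.77 ± 0.13 (1.70-fold, 95% interval 0.45 to 1.08) passed at an adjusted p of 0.0402 (limma, higher on 3 of 4 arrays). With a term for dye over the 4 arrays the call was lost (adjusted p = 0.313), as it was without replicate 2 (adjusted p = 0.267), and the dye term itself had an adjusted p of 0.067. With arrays centred on the median in place of loess, all 3 Bdh1 probes passed as higher, by 0.95 for this one, 0.35 for A_51_P163106 and 0.30 for A_55_P2181753 (adjusted p = 0.088, 0.121 and 0.147). Under that scaling the median over all tested probes was itself 0.17. There 6472 of the 27513 tested probes passed, 87.7% of them as higher. The difference between this probe and the brightest Bdh1 probe was 0.99, 0.98 and 0.63 in log2 ratio on the arrays with Rap1-/- in Cy5 and -0.54 on the dye swap, so it changed sign with the dye. The part of dye in this call was not tested further, and the files name a transcript for each probe but not its sequence.

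Other list genes with several probes showed the same arrangement. Of 28 such genes besides Bdh1 among the pathway lists described below, the dimmest tested probe gave a higher ratio than the brightest on replicates 1, 2 and 3 and a lower one on the dye swap in 15, and the reverse in 5. Cpt1a, which encodes the entry point of long-chain fatty acids into mitochondria, was among the 15. Its bright probe had log2 ratios of 1.02, 0.25, 0.57 and -0.18, and its dim probe 1.96, 1.21, 1.16 and -0.34. This comparison was chosen after the values of the Bdh1 probes were seen.

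Acat1 encodes the mitochondrial thiolase that joins acetyl-CoA units into acetoacetyl-CoA, the first step of ketogenesis. A_51_P319449 read 13.05, 12.65, 12.33 and 12.98 in Rap1-/-, against 12.91, 12.83, 12.75 and 12.48 in wild-type. As for Pdk4, the liver of replicate 1 was above wild-type on both dyes and replicates 2 and 3 were below. The log2 ratios of 0.14, -0.18, -0.42 and 0.50 gave a mean over the 3 pairs of -0.09 ± 0.15, with a 95% interval of -0.48 to 0.29 (adjusted p = 0.695, limma). Without replicate 1 and its dye swap the log2 fold change was -0.30 and passed (adjusted p = 0.107, limma), as did 12596 of the 27513 tested probes. With the dye term it was 0.17 and did not pass (adjusted p = 0.510).

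**Figure D2:**
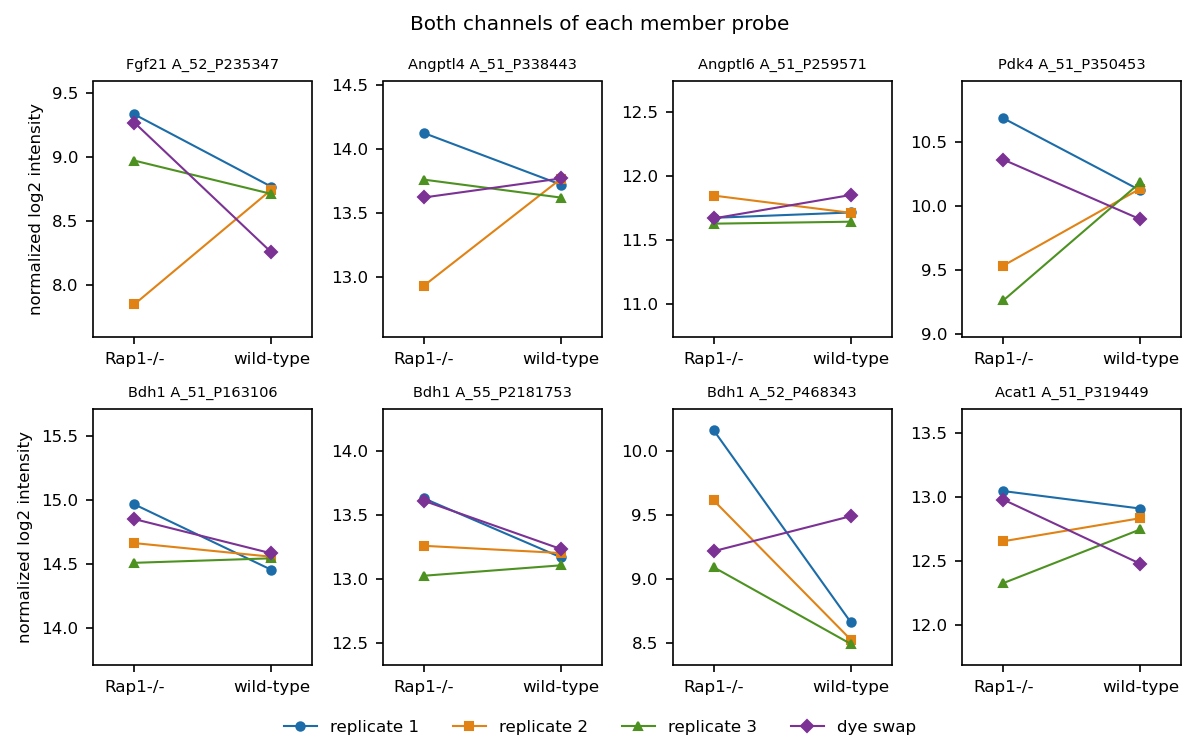
Normalized log2 intensity (y axes, each spanning the same number of log2 units) of the 8 member probes in the Rap1-/- channel (left) and the wild-type channel (right), joined for each array. The wild-type points of replicates 1, 2 and 3 nearly coincide for every probe, whereas the Rap1-/- points of Fgf21 and Pdk4 span 1.49 and 1.43 log2 units.

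The spread within each genotype summarised these differences. Across the arrays of replicates 1, 2 and 3, the 8 member probes spanned 0.22 to 1.49 log2 units in Rap1-/- and 0.06 to 0.17 in wild-type. The median range over all tested probes was 0.27 in Rap1-/- and 0.12 in wild-type, and 80.4% of tested probes had the narrower range in wild-type. For 7 of the 8 member probes the Rap1-/- range was above that median, and 5 of the 8 exceeded at least 90% of tested probes. Fgf21 exceeded 98.4%, Pdk4 98.2%, Angptl4 97.2%, Bdh1 A_52_P468343 96.5% and Acat1 91.7%, while Angptl6 exceeded 37.8%. These percentages describe 3 livers, and the feeding state, the time of collection and the body weight of each animal are not given in the labels.

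**Figure D3:**
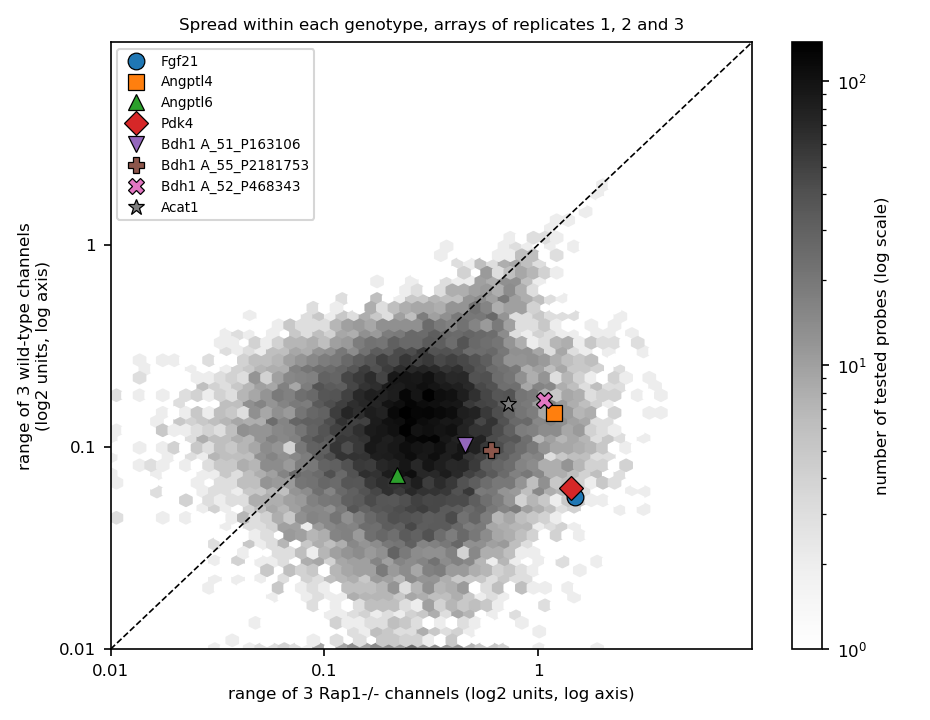
Range of the normalized log2 intensity over the arrays of replicates 1, 2 and 3 in Rap1-/- (x axis) and wild-type (y axis), both on log axes, for all 27513 tested probes (shading, number of probes) and the 8 member probes (symbols). The dashed line marks equal ranges, and all 8 member probes lie below it.

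The dye swap carried information on whether the differences among livers recurred in a second hybridisation. Over the 500 probes with the widest Rap1-/- spread, its turned ratio correlated at 0.32 with replicate 1, 0.12 with replicate 2 and 0.01 with replicate 3 (Pearson's r across probes, which are not independent replicates). Those probes were picked on these same arrays. Over the 10538 bright probes, its Rap1-/- channel correlated at 0.9781 with that of replicate 1, 0.9778 with replicate 2 and 0.9669 with replicate 3. That measure does not single out replicate 1. Fgf21, Pdk4, Acat1 and the 2 bright Bdh1 probes were higher in Rap1-/- on both the array of replicate 1 and the dye swap. Angptl6 was lower on both, and Angptl4 and the dim Bdh1 probe changed sign.

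Genes whose log2 ratios over the 4 arrays lay nearest to those of each member were named by Euclidean distance among the brightest probes of 13167 tested genes. The nearest to Angptl4 was Igfbp1, an insulin-repressed binding protein for insulin-like growth factors (distance 0.43), followed by Sowahb (0.46). Igfbp1 had log2 ratios of 0.10, -0.88, 0.01 and -0.42. Rab30 (0.43) and Spon2 (0.45) were nearest to Fgf21, and Dnmt3b (0.15) and Lrfn3 (0.36) to Pdk4. Acat1 lay nearest to Hspa13 (0.14) and Kdsr (0.15), Bdh1 to Exd1 (0.04) and Cyp3a57 (0.07), and Angptl6 to Ebp (0.05) and Snapc2 (0.06). The distances are descriptions over 4 arrays.

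The wider pathways were described with 10 gene lists of 109 genes, of which 99 were tested, each by its brightest probe. Of these, 34 passed the test, 21 higher and 13 lower, or 34.3% against 34.1% of all 13167 tested genes (18.0% higher and 16.1% lower). The share of calls was thus near that of the array. With the dye term 9 of the 99 genes passed, and without replicate 2 the count was 0. Each gene named below by the smallest p in its list that passed lost its call under 1 to 7 of the 10 alternatives.

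Acat1 and Bdh1 stand for ketone body synthesis here. Of 9 genes for ketone export and use, 3 were higher. They were Acat2, the cytosolic thiolase, by 0.51 ± 0.08 (adjusted p = 0.0402) and on all 4 arrays, Bsg, the chaperone of monocarboxylate transporters, by 0.62 ± 0.15 (adjusted p = 0.0576), and Aacs, which returns acetoacetate to lipid synthesis, by 1.001 ± 0.31 (adjusted p = 0.0891). Bsg was lower on the dye swap, at -0.35, and Aacs was at -0.02 there.

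For the signal that FGF21 gives, 9 receptor and hormone genes were tested by their brightest probes, with 0 higher and 2 lower. Dimmer probes of Fgfr3 (0.66 ± 0.14, adjusted p = 0.0491, limma) and Fgfr4 (0.37 ± 0.10, adjusted p = 0.0737) passed as higher. Both were below 0 on the dye swap, at -0.49 and -0.15. A dimmer Fgfr1 probe passed as lower (-0.30 ± 0.09, adjusted p = 0.0933, limma). Klb, which encodes β-Klotho, had log2 ratios of 0.04, -0.18, -0.26 and -0.49 and a mean of -0.22 ± 0.08 (adjusted p = 0.126, limma), a call lost under 7 of 10 alternatives. Fgf23, the phosphate-regulating hormone of bone, had -1.40, -0.59, -0.69 and -0.08 and a mean of -0.67 ± 0.08 (adjusted p = 0.0402). With the dye term its call was lost (-0.49 ± 0.17, adjusted p = 0.235, limma), and without the dye swap the mean was -0.89 ± 0.17. The specificity of this probe was not tested. Fgfr2 did not pass, at -0.18 ± 0.08 (adjusted p = 0.187).

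Of 13 genes of the angiopoietin-like proteins and plasma lipases, 4 were higher and 2 lower, and neither Angptl4 nor Angptl6 was among them. The higher genes included Apoa5, an activator of triglyceride clearance, by 0.49 ± 0.10 (adjusted p = 0.0441, limma), and Furin, a proprotein convertase that cleaves several of these proteins, by 0.32 ± 0.09 (adjusted p = 0.0735). Both were higher on 4 of 4 arrays, and the call was lost under 5 of 10 alternatives for Furin, the dye term among them, and under 2 for Apoa5. Angptl8, a feeding-induced secreted protein of liver and fat, was lower, at -0.43 ± 0.15 (adjusted p = 0.116) and on 4 of 4 arrays, and is named after its value was seen.

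Around Pdk4, 12 genes of the pyruvate dehydrogenase complex and its regulators were tested, with 1 higher and 0 lower. Pdha1, the catalytic subunit that Pdk4 phosphorylates, was higher by 0.64 ± 0.11 (adjusted p = 0.0404, limma), with log2 ratios of 1.33, 0.90, 0.50 and -0.28. Its direction differed between the dye orientations, as that of the dim Bdh1 probe did. The phosphatase Pdp2 (-0.28 ± 0.12, adjusted p = 0.168) and the E2 subunit Dlat (-0.17 ± 0.10, adjusted p = 0.261) did not pass.

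**Figure D4:**
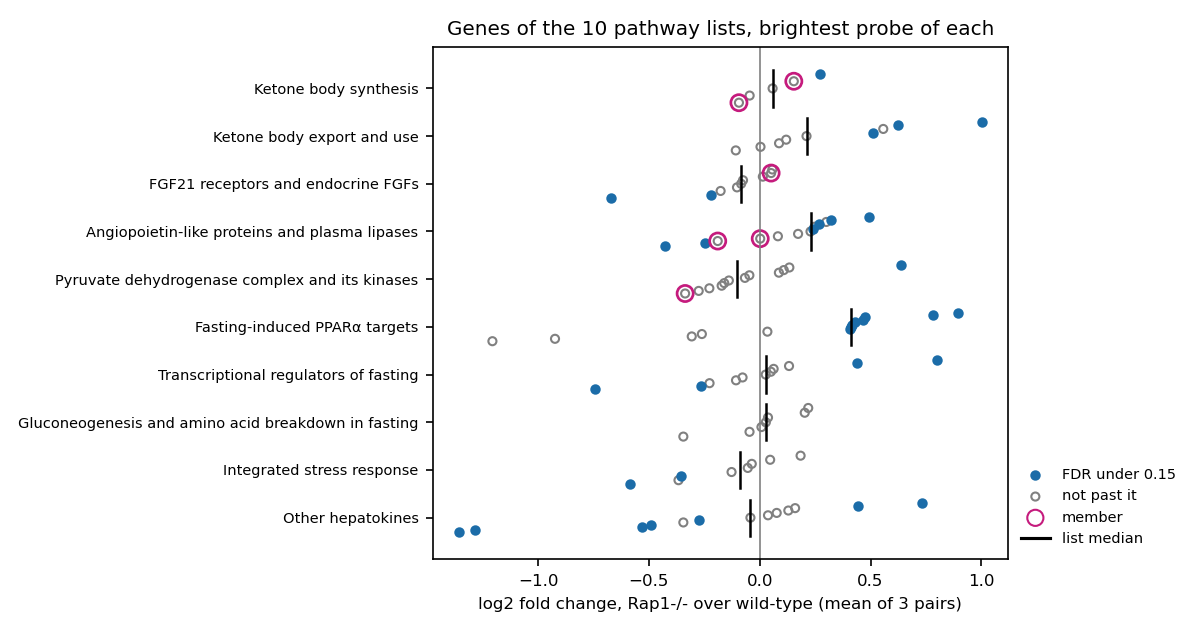
Log2 fold change of Rap1-/- over wild-type (x axis, mean of 3 pairs) for the tested genes of the 10 pathway lists (y axis), each by its brightest probe. Filled points passed an FDR of 0.15, open points did not, rings mark the members and bars the list medians, which run from -0.10 to 0.41.

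The list of fasting-induced PPARα targets held the largest share of calls, 8 of 13 higher and 0 lower. Over all tested genes 18.0% were higher and 16.1% lower. The list median log2 fold change was 0.41 against 0.0049 over all tested genes. Fgf21, Angptl4 and Pdk4, also PPARα targets, were placed in other lists and are not among the 13. They did not pass, at 0.05, -0.19 and -0.34. Slc25a20, the mitochondrial carnitine carrier, was higher by 0.78 ± 0.10 (adjusted p = 0.0402, limma), and Cpt1a by 0.42 ± 0.10 (adjusted p = 0.0562). On the dye swap Slc25a20 was at -0.09 and Cpt1a at -0.18. With the dye term 0 of the 13 passed, and without replicate 2 again 0. Without replicate 1 and its dye swap the counts were 7 higher and 4 lower, in a fit where 12596 of the 27513 tested probes passed.

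Within the same list, Cyp4a14, Cyp4a10 and Acot1 split the livers as Pdk4 did at their brightest probes. Cyp4a14, a fatty acid ω-hydroxylase that responds strongly to PPARα, had log2 ratios of 1.28, -1.16, -3.45 and 0.71. Acot1, an acyl-CoA thioesterase, had 0.73, -1.48, -1.78 and 0.26, and Cyp4a10 had 1.75, -0.58, -1.39 and 0.63. A further Cyp4a10 probe, A_51_P254895, had 1.64, -0.73, -1.40 and 0.62. The dimmest Cyp4a10 probe, A_55_P2092030, did not split the livers, with 2.68, 0.69, 0.22 and 0.12. It passed as higher (mean 0.77 ± 0.22, adjusted p = 0.0808, limma). The genes that were higher on both arrays of replicate 1 and lower on replicates 2 and 3 numbered 11 of the 99 list genes (11.1%), Pdk4 and Acat1 among them, and 588 of all 13167 tested genes (4.47%). This pattern was looked for after the ratios of Pdk4 had been seen, and it is a description.

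**Figure D5:**
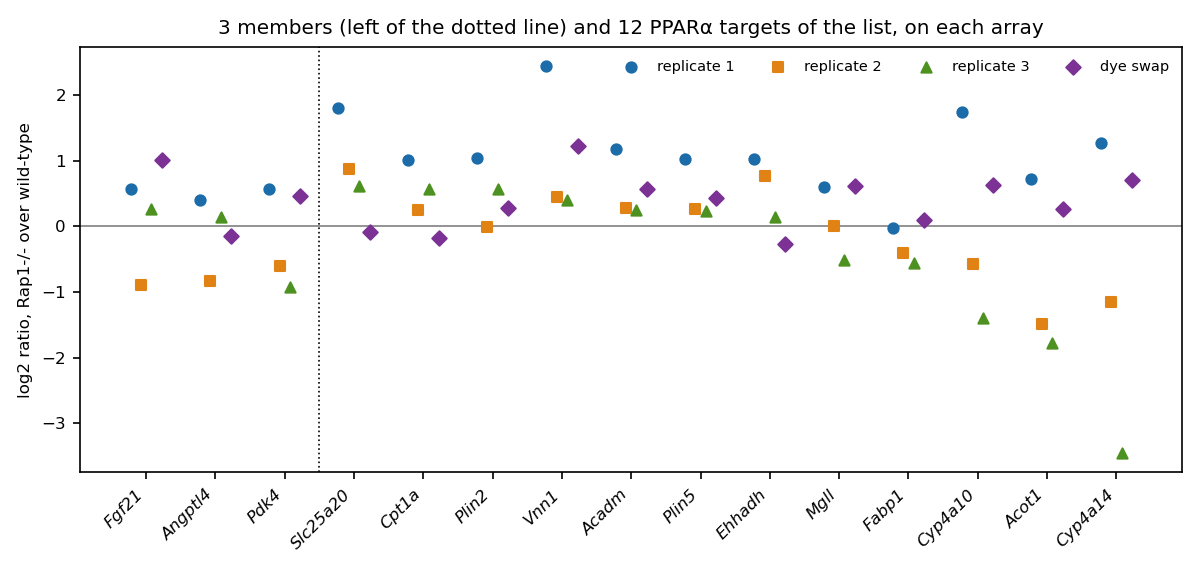
Log2 ratio of Rap1-/- over wild-type (y axis) on each of the 4 arrays for Fgf21, Angptl4 and Pdk4 (left of the dotted line) and for 12 of the 13 fasting-induced PPARα targets. Replicate 1 gave the highest of the 3 Cy5 ratios for all of these genes, and Cyp4a14 ranged from -3.45 in replicate 3 to 1.28 in replicate 1.

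Regulators of the fasting response were tested for 11 genes, of which 2 were higher and 2 lower. Ppara itself was higher by 0.80 ± 0.11 at its brightest probe (adjusted p = 0.0402, limma), with log2 ratios of 0.99, 0.94, 0.90 and 0.15, whereas another of its probes, A_55_P2071596, had -0.24, -0.40, -0.30 and 0.39 and did not pass. The third Ppara probe, A_55_P2071601, had 0.64, 0.73, 0.86 and 0.27 and was higher by 0.68 ± 0.11 (adjusted p = 0.0402), so 2 of the 3 were higher. Ncor1, a corepressor, was higher by 0.44 ± 0.08 at its brightest probe (adjusted p = 0.0417, limma) and was at 0.0005 on the dye swap. With the dye term this call was lost (adjusted p = 0.249, limma). The other Ncor1 probe, A_55_P2121466, had 0.24, -0.06, 0.17 and -0.17 and did not pass. Sirt1, a deacetylase that acts on several fasting regulators, was lower, at -0.74 ± 0.14 (adjusted p = 0.0432) and was at 0.16 on the dye swap. No gene passed of the 7 for gluconeogenesis and amino acid breakdown (limma, FDR under 0.15, and none at an unadjusted p under 0.05), with log2 fold changes of -0.34 ± 0.18 for Igfbp1, 0.22 ± 0.14 for Tat and 0.20 ± 0.24 for Sds. By the other treatments of the arrays, 0 to 2 of the 7 passed.

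The integrated stress response, the other known input to Fgf21, had 0 higher and 2 lower of 8 tested genes. Atf4 was lower at its bright probe by a nearly constant amount, -0.38, -0.34, -0.34 and -0.40 on the 4 arrays (mean -0.35 ± 0.08, adjusted p = 0.0535, limma). Its dim probe A_51_P464238 had 0.98, 0.90, 0.86 and -0.79 and passed as higher (mean 0.62 ± 0.18, adjusted p = 0.0794, limma). The 2 Atf4 probes were thus called in opposite directions, and the count above rests on the bright one. Trib3, a pseudokinase induced by ATF4, was lower, at -0.58 ± 0.14 (adjusted p = 0.060) and on 4 of 4 arrays. Chac1 did not pass, at -0.37 ± 0.15 (adjusted p = 0.151).

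Of 13 other hepatokines, 2 were higher and 5 lower, and several of these kept their direction on both dyes. Enho, which encodes adropin, had log2 ratios of -1.16, -1.17, -1.82 and -0.99 and a mean of -1.36 ± 0.16 (adjusted p = 0.0402, limma), and its further probe gave -1.33. Igfbp2, a binding protein for insulin-like growth factors, had -1.01, -1.15, -1.72 and -0.95 and a mean of -1.28 ± 0.16 (adjusted p = 0.0402). Gdf15, a stress-induced hormone that lowers food intake, had 1.04, 0.51, 0.78 and 0.77 and a mean of 0.73 ± 0.11 (adjusted p = 0.0402). These 3 genes passed under 9 of 10 alternatives, and the exception was the fit without replicate 2.

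Markers of other cell types moved with some of these livers. The tested adipocyte markers Cfd and Fabp4 (2 of 5, with Adipoq, Plin1 and Lep not above background) had median log2 ratios of 1.42 in replicate 1 and 1.91 on the dye swap, against 0.05 in replicate 2 and -0.57 in replicate 3. Sums here and below are the log2 of the markers' summed linear intensities, which the brightest marker weighs most. For the adipocyte markers the sum was 10.11 to 11.42 in Rap1-/- and 9.78 to 10.38 in wild-type. The 3 erythroid markers were at 1.03 and 0.61 on the arrays of replicate 1, against -0.26 and 0.09 in replicates 2 and 3, with sums of 15.55 to 16.79 in Rap1-/- and 15.67 to 15.96 in wild-type. The 5 macrophage markers tested had their highest median log2 ratio in replicate 3, at 1.34, with sums of 13.93 to 15.70 in Rap1-/- and 14.47 to 14.61 in wild-type. Vsig4 went the other way, at -0.14 in replicate 3. It was the only macrophage marker that passed, as lower (-0.28 ± 0.10, adjusted p = 0.118, limma). The 4 endothelial markers, of which 3 passed as higher, had median log2 ratios of 0.73, 0.86 and 0.85 in replicates 1, 2 and 3 and -0.05 on the dye swap, with sums of 12.95 to 13.36 in Rap1-/- and 12.53 to 13.09 in wild-type. Replicate 1, where the adipocyte and erythroid markers were high, was also the liver in which Pdk4 and Acat1 lay above wild-type, and the part of these markers in the members' values was not tested. In bulk RNA, fewer cells of a type and less RNA per cell cannot be told apart.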

How the data were processed

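Liver RNA was measured on 4 2-colour arrays. The authors deposited median spot and local background intensities from Agilent Feature Extraction (10.7.3.1 by the file headers), their processed intensities, a log10 ratio per spot and a value table of log2 ratios per probe. The processed intensities, log10 ratios and log2 table were used as alternatives or checks, and the dye-swapped column of the table was found already turned. Median intensities were background-corrected (normexp, offset 50) and loess-normalized within arrays in limma 3.58.1 under R 4.3.3, and channel values were then quantile-normalized on mean intensity (Aquantile). Tests covered the 27513 of 55681 probes for which, in 1 genotype or both, each array had a share of 0.5 or more of the spots flagged as well above background. The dye swap was turned and averaged with replicate 1, and the intercept over 3 pairs was tested with lmFit and eBayes. All tested probes entered the Benjamini-Hochberg adjustment, and the threshold was an FDR of 0.15. The test was run on simulated ratios that held no dye effect and in which the dye swap followed replicate 1. That check does not cover the dye differences of these arrays, and its outcome is not given here. Probes were named by accession through RefSeq (GRCm38.p6), which named 46.8%. The text names every member probe, up to 3 genes with the smallest p per list, the 2 genes nearest to each member, and Terf2ip, except that results of some list genes are not reported here. Members and lists were chosen with earlier results of these data known. The number of arrays limits the precision. All 4 arrays shared a slide and scan. Gene lists were represented by the brightest probe. Alternatives were the authors' processed intensities, median centring, the value table, no filter, a dye term, the swap as its own replicate, and leaving out arrays. Mean spot intensities were not used here.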

Additional observations from a re-analysis of the deposited data

Results flagged for a closer look

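Of 36 named genes and member probes looked at, 11 pointed one way on the arrays of replicates 1, 2 and 3 and the other way on the dye swap, and each was singled out for that reason. Over all tested probes 43.9% did so. The difference between the dye orientations was described with the dye term of a limma fit over the 4 arrays. The items were chosen by sign on these same arrays, so a low value is favoured by the choice and is no separate test. The fit also treats the dye swap as independent of replicate 1, and no other array holds its orientation. The share of all tested probes whose dye term passed is not given here. The Bdh1 probe A_52_P468343 was at -0.27 on the dye swap (dye term adjusted p = 0.067), Bsg at -0.35 (0.0233), Pdha1 at -0.28 (0.0748), Sirt1 at 0.16 (0.0267) and Pdp2 at 0.22 (0.0932), all past an FDR of 0.15. For Aacs at -0.019 (0.227), Fgfr2 at 0.013 (0.342), Dlat at 0.10 (0.302), Slc25a20 at -0.092 (0.156), Cpt1a at -0.18 (0.152) and Chac1 at 0.069 (0.325) the dye term did not pass.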

How the results depend on the processing

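No block by replicate number was possible beyond the within-array ratios, which already pair the genotypes, because the 2 dye orientations share only number 1. Of the 8 member probes, 3 passed with median centring, all of Bdh1, and 0 with a dye term or with the dye swap as a replicate of its own, and leaving out a replicate gave 0 to 3. Over all tested probes, 9488 calls (60.3% higher) became 1844 with the dye term, 83 with the swap as its own replicate and 14496 without the dye swap, and 7 to 12596 on leaving out a replicate, the 7 without replicate 2. For the list genes these counts were 9, 3 and 0 to 46, against 34. The higher share of calls was 49.3% with processed signals, 87.7% with median centring and 45.3% in the value table, and the median log2 fold change of all tested probes was 0.17 with median centring, so changes are relative to that shift. The value itself did not pass as reported, and its sign turned, for Fgf21 (processed signals -0.084, value table -0.065, without the dye swap -0.023, leave-one-out -0.32 to 0.53), Angptl6 (processed signals -0.060, value table -0.054, dye term -0.079, swap as its own replicate -0.026, leave-one-out -0.064 to 0.060), Acat1 (median centring 0.068, dye term 0.17, swap as its own replicate 0.0096, leave-one-out -0.30 to 0.070), Pdk4 (dye term 0.073, leave-one-out -0.76 to -0.043), Angptl4 (leave-one-out -0.35 to 0.13), Bdh1 A_55_P2181753 (leave-one-out -0.012 to 0.24), Fgfr2 (0.020) and Dlat (0.0091) with median centring, and Sds (dye term -0.26, leave-one-out -0.052 to 0.56). Without replicate 1, Acat1, Pdk4 and Sds passed. That fit holds replicates 2 and 3 alone, both with Rap1-/- in Cy5, and is the one in which 12596 probes passed. The cause was not tested. Bdh1 A_52_P468343 kept its direction under all 10 alternatives and passed under 7. List medians of the FGF21 receptors, the pyruvate dehydrogenase complex, the stress response and the other hepatokines turned positive with median centring.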
